A study of Mus musculus with 2 samples.

Results

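The genes described are 10 of the 32285 that were counted in both libraries, chosen by name for their part in prostaglandin E2 (PGE2). Ptgs2, Ptgs1, Ptges and Ptges3 encode enzymes of its synthesis, Ptger2, Ptger3 and Ptger4 encode receptors for it, and Abcc4, Slco2a1 and Hpgd encode proteins of its export, uptake and breakdown. The list itself uses no threshold on a measured value. Among the barcodes that passed the quality limits given below, all 10 had at least 1 count in the Clec7a-/- library and 8 in the wild-type (WT) library. Myeloid cells were sorted by CD11b and CD11c from colorectal polyps of C57BL6/J mice that had received azoxymethane (AOM), a carcinogen, and 3 cycles of 1% dextran sodium sulfate (DSS), which injures the colonic epithelium. Cells were taken 16 weeks after AOM, and the labels give an age of 26 weeks for mice of both genotypes. Cells of 5 WT mice made up a single library and those of 4 mice lacking Clec7a (Clec7a-/-) the other. Clec7a encodes Dectin-1, a myeloid receptor for beta-glucans, and was itself not analysed here, so the genotype labels were not checked with it.

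Phospholipases free arachidonic acid from membranes, and the cyclooxygenases encoded by Ptgs1, which many cells express at rest, and Ptgs2, which inflammatory signals induce, turn it into prostaglandin H2. Terminal synthases then form PGE2, which leaves cells partly through the exporter Abcc4, acts on receptors that differ in their G proteins, and is taken up by Slco2a1 and oxidized to an inactive product by Hpgd. In the colon, PGE2 has long been linked to tumor growth, and the cyclooxygenases are the targets of aspirin-like drugs.

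The starts of Ptgs2, Ptges and Ptgs1 are shown because these 3 synthesis genes differed most in the classes of cells that held them. Each line gives 220 bases before and 30 bases from the RefSeq start, 5′ to 3′ on the gene's strand, in GRCm38.p6, with matches to the motifs searched in capitals:
Ptgs2, chr1:150099811-150100060, plus strand: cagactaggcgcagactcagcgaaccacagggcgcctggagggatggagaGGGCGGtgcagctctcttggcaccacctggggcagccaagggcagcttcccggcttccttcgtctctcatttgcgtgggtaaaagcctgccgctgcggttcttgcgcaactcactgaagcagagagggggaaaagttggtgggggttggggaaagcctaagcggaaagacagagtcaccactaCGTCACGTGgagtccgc
Ptges, chr2:30903268-30903517, minus strand: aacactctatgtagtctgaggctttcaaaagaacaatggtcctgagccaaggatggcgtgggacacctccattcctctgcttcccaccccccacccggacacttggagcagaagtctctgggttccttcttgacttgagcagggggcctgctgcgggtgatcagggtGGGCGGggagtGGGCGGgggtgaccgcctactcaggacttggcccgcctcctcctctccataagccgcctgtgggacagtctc
Ptgs1, chr2:36230206-36230455, plus strand: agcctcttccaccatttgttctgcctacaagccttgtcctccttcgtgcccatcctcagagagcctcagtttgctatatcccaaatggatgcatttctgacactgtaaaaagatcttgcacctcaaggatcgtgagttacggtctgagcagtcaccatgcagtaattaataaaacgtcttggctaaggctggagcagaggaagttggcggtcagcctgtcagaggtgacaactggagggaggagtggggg
The capitals of Ptgs2 mark a GC box (GGGCGG) that begins 170 bases before the start, and a short cAMP response element core (CGTCA) that begins at base 14 after it and shares 2 bases with an E box (CACGTG) at base 17. Those of Ptges mark GC boxes 53 and 42 bases before the RefSeq start, and the Ptgs1 window held none of the letters searched. In GENCODE the Ptges gene runs to base 30929863, so the window around its RefSeq start lies inside the gene as GENCODE places it. Both strands were searched for 7 motifs. Of 32851 windows of this length, 33.8% held GGGCGG, 18.8% CGTCA, 6.37% CACGTG, 21.5% TATAA, 9.60% TTNNGNAAT (bound by C/EBP factors), 1.42% the NF-kB consensus and 1.71% TGACGTCA. GC content was 61.2% in the Ptgs2 window, 60.8% in that of Ptges and 50.4% in that of Ptgs1. A match is a run of letters and not a measured binding site.

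The WT library held 15869215 unique molecular identifiers (UMIs, each tagging 1 captured transcript copy) in 3467 barcodes, and the Clec7a-/- library held 11808230 in 3080. Requiring 200 to 4000 genes and no more than 5% mitochondrial UMIs left 2696 WT and 1999 Clec7a-/- barcodes, with medians of 3412.5 and 2671 UMIs. The libraries shared 17 barcode sequences, 6 of them among the kept ones. Clusters were named from marker genes, and 10 classes had at least 50 barcodes in each library. They were called monocyte-like (Ly6c2, Chil3, Plac8), transitional-like between monocyte and macrophage (Ccl24, Arg1, Mmp19), neutrophil-like with Ngp and Retnlg, neutrophil-like with few UMIs per barcode, macrophage-like (C1qa, C1qb, Apoe), T-cell-like, and mature, type 2 and type 1 dendritic-cell-like (DC-like, with Fscn1 and Ccr7, with Clec10a and Mgl2, and with Xcr1 and Clec9a). The last 2 are written cDC2-like and cDC1-like. The name cDC2-like rests on 3 of 9 listed markers, the fewest allowed, against 7 of 10 for cDC1-like and 12 of 12 for mature-DC-like. Marker lists alone gave the same class to 30 of its 127 WT and 59 of its 146 Clec7a-/- barcodes. The same held for 140 of 328 WT and 150 of 231 Clec7a-/- monocyte-like barcodes, and for 275 of 404 and 175 of 267 transitional-like ones. Among macrophage-like barcodes it was 458 of 531 and 274 of 299, and among mature-DC-like ones 139 of 143 and 238 of 246. In the monocyte-like class agreement was thus lower in the WT than in the Clec7a-/- library. Monocyte markers summed to 1029 and 880 CPM in cDC2-like barcodes. A mixed class held markers of both monocytes and neutrophils. The class mix differed between the libraries, as the 3 DC-like classes held 6.0%, 3.57% and 5.43% of the WT UMIs but 15.4%, 6.48% and 15.1% of the Clec7a-/- UMIs, in the order given above. The neutrophil-like Ngp+ Retnlg+ class held 12.2% and 2.0% of the UMIs. Levels are CPM, a gene's UMIs as a share of all UMIs of the same barcodes, scaled to a common total. With 1 library per genotype no test was made, and every bracketed range is a 95% interval that covers counting error only, exact except for differences between ratios, which use the sum of the counting variances. Such intervals leave out differences between mice, and they are too narrow where a few barcodes hold many of the UMIs. In a class summed over its barcodes, fewer expressing cells and less RNA per cell cannot be told apart.

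Ptgs2 (ENSMUSG00000032487, chromosome 1 from 150100031 to 150108227 on GRCm38), the inducible cyclooxygenase gene, was highest in the transitional-like, monocyte-like and mixed classes of the WT library, where it reached 571, 526 and 486 CPM. The intervals of the ratios between these neighbours in the order spanned 1. The cDC2-like class followed at 315 CPM, a step beyond counting error, and macrophage-like (290.0 CPM) and neutrophil-like Ngp+ Retnlg+ barcodes (286 CPM) were not set apart from their neighbours. In the Clec7a-/- library the order began with the neutrophil-like Ngp+ Retnlg+ class at 365 CPM, with transitional-like at 348 CPM and monocyte-like at 316 CPM not set apart from it. T-cell-like barcodes, which should make little Ptgs2, held 45.8 CPM (19.8 to 90.3) in WT and 88.5 CPM (54.8 to 135) in Clec7a-/-, and 11 of the 21 UMIs in the latter came from 1 barcode. The WT cDC1-like level of 61.4 CPM was not set apart from the T-cell-like level beyond counting error, and the Clec7a-/- cDC1-like level of 27.2 CPM lay below it. Clec7a-/- mature-DC-like barcodes held 87.6 CPM from 102 UMIs, close to a T-cell-like level that rested largely on that barcode. Mast-cell-like barcodes, 16 and 5 in number, held 594 CPM (48 UMIs) and 309 CPM (7 UMIs).

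Ptgs2 UMIs were unevenly spread over barcodes. The 5% of barcodes with the most Ptgs2 held 44.0% of its UMIs in WT and 52.0% in Clec7a-/-. A single WT macrophage-like barcode had 96 UMIs and the highest Clec7a-/- barcode, a transitional-like one, had 32. Barcodes with at least 5 Ptgs2 UMIs made up 9.57% of the WT library and 3.05% of the Clec7a-/- library. Within the macrophage-like class these were 14.7% and 6.02%, within the transitional-like class 18.6% and 5.99%, and within the neutrophil-like Ngp+ Retnlg+ class 2.44% and 1.22%. These shares are not adjusted for depth, so they are compared neither between classes nor between libraries. The median WT barcode held 7822 UMIs in the macrophage-like and 2799 in the neutrophil-like Ngp+ Retnlg+ class, against 6207 and 1762.5 in the Clec7a-/- library. The share of 1.22% was 1 barcode of 82.

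**Figure D1:**
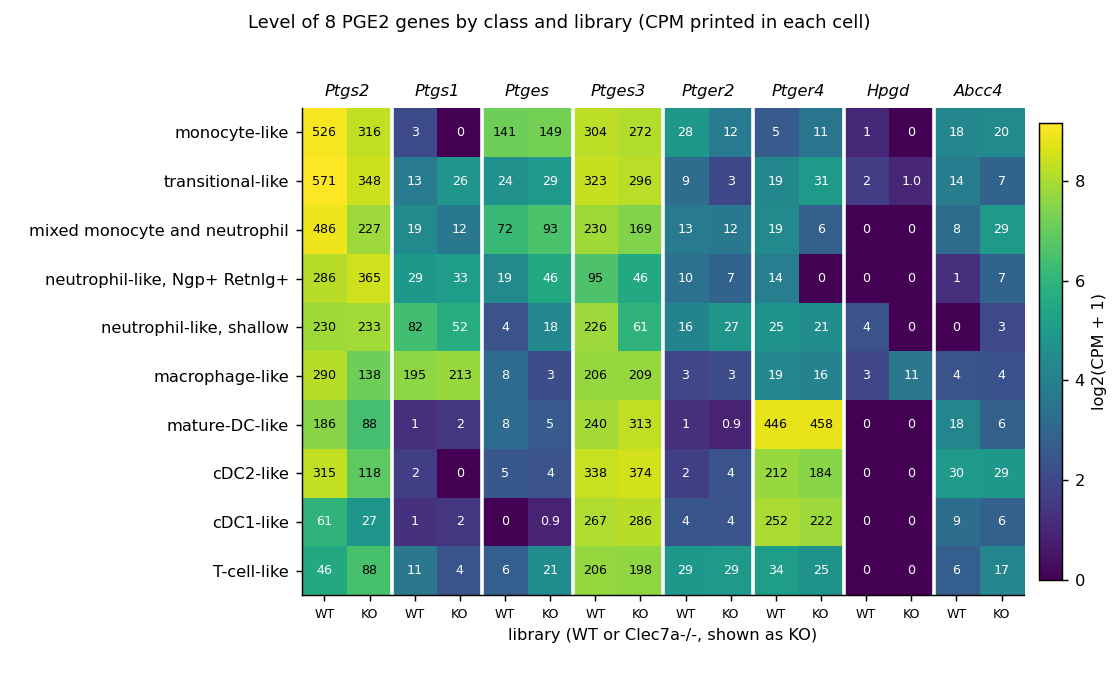
Heatmap of the level of 8 genes in 10 classes (rows) of the WT and Clec7a-/- (KO) libraries (column pairs), coloured by log2(CPM + 1), with the CPM printed in each cell and to be read within a gene. Ptgs2 reached 571 CPM in WT transitional-like barcodes, Ptges was highest in monocyte-like ones (141 and 149 CPM), Ptgs1 in macrophage-like ones (195 and 213 CPM) and Ptger4 in mature-DC-like ones (446 and 458 CPM).

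Ptgs1 (ENSMUSG00000047250, chromosome 2 from 36230426 to 36252272), the cyclooxygenase gene usually expressed at rest, was held mainly by macrophage-like barcodes. They had 828 of its 979 UMIs in WT and 432 of 499 in Clec7a-/-. Their level was 195 CPM (182 to 209) in WT and 213 CPM (193 to 234) in Clec7a-/-, which was 10.4 and 17.6 times the level of all other barcodes. The small proliferating cluster, 13 and 18 barcodes with macrophage markers and not among the 10 classes, held 32 and 11 of the remaining UMIs, or 226 and 80.9 CPM. Among the 10 classes, the neutrophil-like class with few UMIs came next, at 82.2 and 51.5 CPM, and the Ngp+ Retnlg+ class held 28.7 and 33.1 CPM. Monocyte-like barcodes, among the highest for Ptgs2, had only 3 and 0 Ptgs1 UMIs, and the 3 DC-like classes together had 3 and 4. Transitional-like barcodes had 12.6 and 26.3 CPM. Macrophage markers summed to 4638 CPM in WT and 1822 CPM in Clec7a-/- barcodes of the neutrophil-like class with few UMIs, and their part in its Ptgs1 was not tested. Among the 10 classes, Ptgs1 was thus near 0 in monocyte-like and DC-like barcodes and highest in macrophage-like ones.

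Ptges (ENSMUSG00000050737, minus strand of chromosome 2 from 30889471 to 30929863), which encodes the inducible membrane-bound PGE2 synthase, was highest in the monocyte-like class, which held 134 of 339 UMIs in the WT library, a level of 141 CPM (118 to 167), and 84 of 164 in the Clec7a-/- library, a level of 149 CPM (119 to 185). The mixed class followed at 71.8 and 93.2 CPM, and transitional-like barcodes, as high in Ptgs2 within counting error, had 23.5 and 29.2 CPM. Macrophage-like barcodes held 8.23 and 3.45 CPM and the 3 DC-like classes 4.34 and 3.22 CPM. Ptges was thus lower in transitional-like than in monocyte-like barcodes of both libraries, an order that Ptgs2 did not share. T-cell-like barcodes had 1 and 5 Ptges UMIs, the 5 all in 1 barcode, or 5.73 CPM (0.145 to 31.9) and 21.1 CPM (6.84 to 49.2). Of the 10 classes, only the monocyte-like and mixed ones lay above these ranges in both libraries. Macrophage-like and DC-like levels lay within or below them. Ptges was among the 10 leading genes of the monocyte-like cluster by fold, so its height there describes the cluster and is no test, although the 10 genes were left out of the features used to draw the clusters.

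Ptges3 (ENSMUSG00000071072, chromosome 10 from 128058954 to 128077272) encodes p23, a cochaperone of Hsp90 that also has PGE2 synthase activity in the cytosol. It was found in every one of the 10 classes, from 95.5 CPM in neutrophil-like Ngp+ Retnlg+ barcodes to 338 CPM in cDC2-like barcodes of the WT library. In the Clec7a-/- library it ran from 46.4 to 374 CPM over the same classes. Its UMIs were also the most evenly spread of the 4 synthesis genes, with 25.0% and 27.4% of them in the 5% of barcodes that held most.

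**Figure D2:**
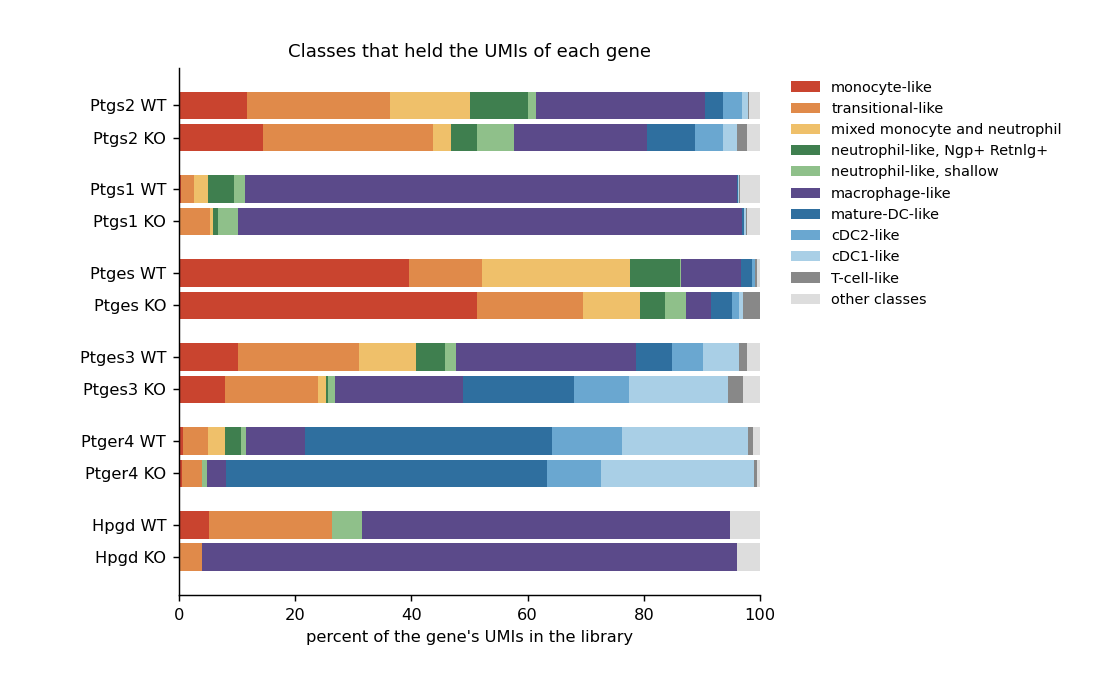
Stacked bars giving the percent of each gene's UMIs (x axis) that lay in each class, for 6 genes in the WT and Clec7a-/- (KO) libraries. Macrophage-like barcodes held 84.6% and 86.6% of the Ptgs1 UMIs, monocyte-like barcodes 39.5% and 51.2% of those of Ptges, and mature-DC-like barcodes 42.5% and 55.2% of those of Ptger4, while Ptgs2 and Ptges3 were spread over many classes.

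Deeper barcodes show more UMIs of every gene, so shares of barcodes with a UMI were compared after each barcode was thinned to 1000 UMIs, which left out 186 WT and 307 Clec7a-/- barcodes with fewer. Ptgs2 was then found in 36.2% of WT and 19.4% of Clec7a-/- transitional-like barcodes, in 26.7% and 18.8% of monocyte-like ones and in 18.6% and 12.5% of macrophage-like ones. In neutrophil-like Ngp+ Retnlg+ barcodes the shares ran the other way, 22.7% and 29.1%, with intervals that overlapped. The T-cell-like shares, at median depths of 2284.5 and 1823 UMIs before thinning against 3591.5 and 3304.5 for all barcodes, were 7.14% and 5.49%. DC-like shares of Ptgs2 between 3.07% and 12.1% were thus not clearly above that level. Ptges was found in 10.2% of WT and 9.13% of Clec7a-/- monocyte-like barcodes, against 0 of 56 and 1 of 91 T-cell-like barcodes, where a count of 0 allows a share of up to 5.36%.

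**Figure D3:**
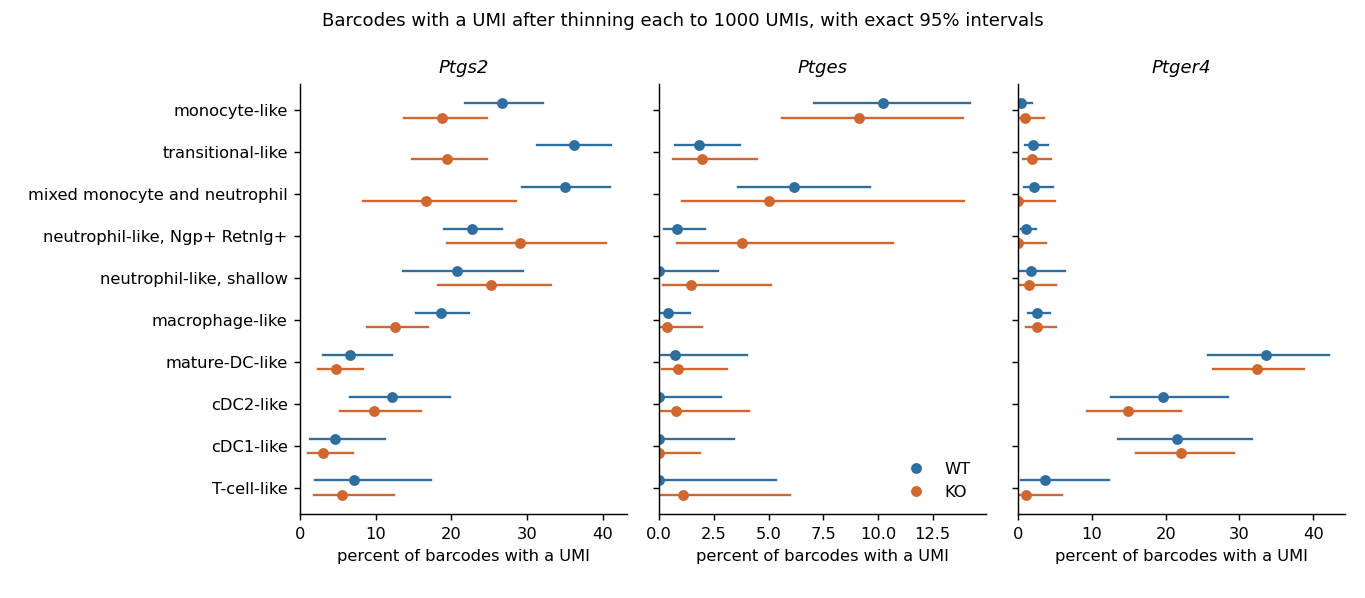
Percent of barcodes with a UMI of Ptgs2, Ptges and Ptger4 (x axes) by class after thinning to 1000 UMIs, with points for the WT and Clec7a-/- (KO) libraries and bars for exact 95% binomial intervals. Ptgs2 was found in 36.2% of WT and 19.4% of Clec7a-/- transitional-like barcodes, Ptges mainly in monocyte-like and mixed barcodes, and Ptger4 in 33.6% and 32.3% of mature-DC-like barcodes.

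Whether single barcodes held both the inducible cyclooxygenase and the inducible synthase was asked next. Without thinning, Ptgs2 and Ptges were found together in 103 of 2696 WT barcodes and in 30 of 1999 Clec7a-/- barcodes. Of the 103, 33 were monocyte-like, 26 mixed, 14 neutrophil-like Ngp+ Retnlg+, 13 transitional-like, 13 macrophage-like, 3 mature-DC-like and 1 cDC2-like. Of the 30, 15 were monocyte-like and 6 transitional-like, and the mixed, shallow neutrophil-like and macrophage-like classes had 2 each. The monocyte-like class thus held the most barcodes with both genes in each library, and the rest were spread over several classes.

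After thinning, 23 of 2510 WT barcodes (0.916%, 0.582 to 1.37) and 10 of 1692 Clec7a-/- barcodes (0.591%, 0.284 to 1.08) held both. If the genes were independent of each other across all barcodes, the product of their single shares would give 14.3 and 5.03 barcodes. The counts were thus 1.61 and 1.99 times the product. As shares, the products were 0.571% in WT, just below the interval, and 0.297% in Clec7a-/-, inside it. Over all thinned WT barcodes, Ptges was found in 3.97% of those with Ptgs2 and 2.02% of those without it. The Clec7a-/- shares were 4.35% and 1.85%. Intervals with and without Ptgs2 overlapped in both libraries. Within the monocyte-like class the counts were 9 of 303 and 6 of 208, against products of 8.29 and 3.56. Among WT monocyte-like barcodes, 11.1% (5.21 to 20.0) of those with Ptgs2 and 9.91% (6.32 to 14.6) of those without it held Ptges. In the Clec7a-/- library these were 15.4% (5.86 to 30.5) and 7.69% (4.16 to 12.8). The intervals with and without Ptgs2 thus overlapped in the monocyte-like class of both libraries. In the mixed class of the WT library 6 barcodes held both, against a product of 5.95, and in the transitional-like class 5, against 2.53 (3.57% with and 0.810% without Ptgs2, with overlapping intervals).

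In macrophage-like barcodes of the WT library Ptges was found more often with Ptgs2 than without it. Without thinning, 5.49% (2.95 to 9.20) of those with Ptgs2 held Ptges, against 1.02% (0.211 to 2.95) of those without it, intervals that meet. In the Clec7a-/- library the shares were 1.85% and 2.09%. The 3 DC-like classes of the WT library also showed a split, with Ptges in 5.48% (1.51 to 13.4) of 73 barcodes with Ptgs2 and in 0 of 285 without it. Their Clec7a-/- shares were 1.28% and 1.04%. Only 4 WT DC-like barcodes held both genes, and these were deep, with a median of 10019.5 UMIs against 4300.5 for the 3 classes. Thinned to 1000 and 2000 UMIs, 1 and 2 of them held both, against products of 0.0783 and 0.331. Thinned to 2000 UMIs, 7 of 474 WT macrophage-like barcodes held both genes, against a product of 1.97, and Ptges was found in 5.98% (2.44 to 11.9) of those with Ptgs2 and 0.280% (0.00709 to 1.55) of those without it. Thinned to 1000 UMIs, 2 WT macrophage-like barcodes held Ptges, both with Ptgs2. In the Clec7a-/- library 1 macrophage-like barcode held Ptges at each depth and 0 held both. The products there were 0.125 at 1000 and 0.202 at 2000 UMIs, too low for a contrast with WT. The WT macrophage-like excess was therefore present at equal depth, from few barcodes. The Ptges level of that class, 8.23 CPM in WT, lay within the T-cell-like interval of 0.145 to 31.9 CPM. Splitting monocyte-like barcodes into 3 near-equal groups by depth gave WT shares with and without Ptgs2 of 15.6% and 10.3% in the shallowest, 18.3% and 12.2% in the middle and 25.0% and 31.7% in the deepest group, with overlapping intervals in each. In the Clec7a-/- library the same shares were 15.4% and 9.38%, 14.8% and 10.0%, and 32.1% and 26.5%. The share with Ptges was thus highest in the deepest group of each library, whether or not Ptgs2 was found. The pair of Ptgs1 and Ptges was found together in 1 thinned WT barcode and 2 Clec7a-/- barcodes.

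**Figure D4:**
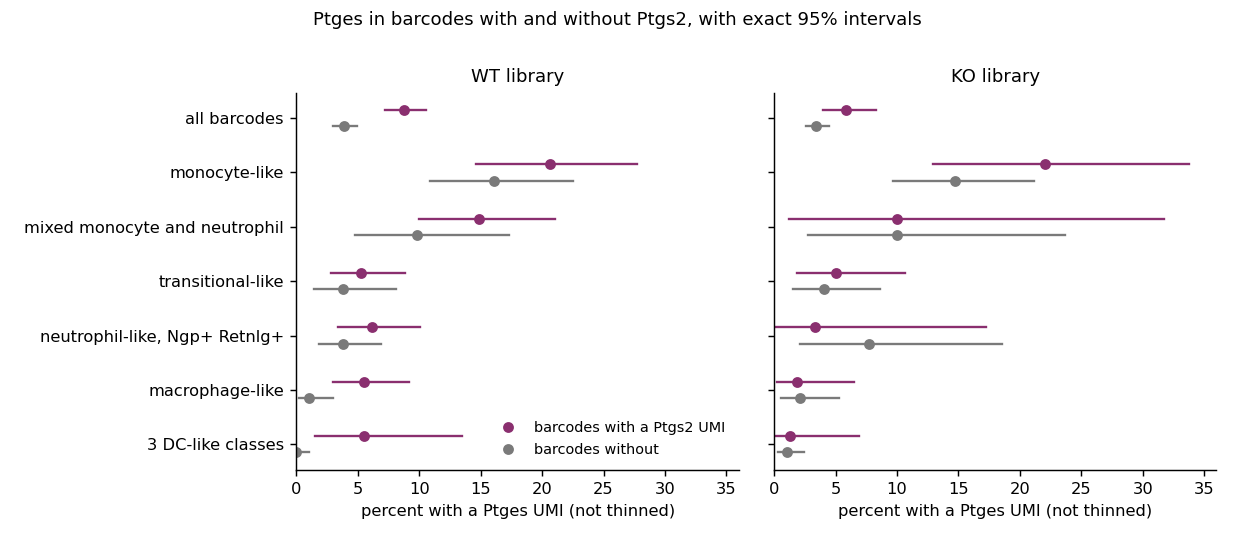
Percent of barcodes with a Ptges UMI (x axis, without thinning) among barcodes with and without a Ptgs2 UMI, by class in the WT and Clec7a-/- (KO) libraries, with exact 95% binomial intervals. Over all WT barcodes the shares were 8.80% and 3.87%, whereas within the monocyte-like class they were 20.6% and 16.1% with overlapping intervals.

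Of the receptor genes, Ptger4 (ENSMUSG00000039942, minus strand of chromosome 15 from 5206661 to 5244187) encodes EP4, which signals through cAMP. It was held mainly by the DC-like classes, in the order mature-DC-like, cDC1-like and cDC2-like in both libraries. Mature-DC-like barcodes held 446 CPM (399 to 497) in WT and 458 CPM (420 to 498) in Clec7a-/-. cDC1-like barcodes held 252 and 222 CPM and cDC2-like barcodes 212 and 184 CPM, and no other of the 10 classes passed 34.4 CPM. After thinning, 33.6% and 32.3% of mature-DC-like barcodes had a Ptger4 UMI, against 3.57% and 1.10% of T-cell-like ones. Ptges was scarce in these classes, and 0 thinned WT barcodes and 1 Clec7a-/- barcode held both genes, against products of 3.04 and 3.24. Ptgs2 and Ptger4 were found together in 19 and 12 barcodes, against products of 28.4 and 20.1. Ptger4 overlaps Ttc33 on the other strand, and whether counting used strand is not given in the sources used here. Ttc33 itself had 21.7 and 13.7 CPM in mature-DC-like barcodes.

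Ptger2 (ENSMUSG00000037759, chromosome 14 from 44988195 to 45003820), which encodes EP2, the other cAMP-raising receptor, was sparse, with 99 UMIs in WT and 45 in Clec7a-/-. Monocyte-like barcodes held 28.4 and 12.4 CPM (27 and 7 UMIs) and T-cell-like barcodes 28.6 and 29.5 CPM (5 and 7 UMIs). The shallow neutrophil-like class had 16.4 and 27.3 CPM (4 and 9 UMIs). The 3 DC-like classes held 2.71 and 2.86 CPM, so the pattern of Ptger2 was unlike that of Ptger4. Ptger2 overlaps Gm17173 on the other strand, which had 8 and 3 UMIs. Ptger3 (ENSMUSG00000040016, chromosome 3 from 157566892 to 157645888), which encodes EP3, a receptor that lowers cAMP, had 0 UMIs in the WT library, which allows up to 0.244 CPM, and 1 in a monocyte-like barcode of the Clec7a-/- library.

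Genes that move or destroy PGE2 were scarce in these myeloid cells. Abcc4 (ENSMUSG00000032849, minus strand of chromosome 14 from 118482692 to 118706219), an exporter of prostaglandins and cyclic nucleotides, had 107 and 67 UMIs, with 29.7 and 28.6 CPM in cDC2-like barcodes and 17.9 and 19.5 CPM in monocyte-like ones. In mature-DC-like barcodes it had 17.6 and 6.01 CPM from 13 and 7 UMIs. Hpgd (ENSMUSG00000031613, chromosome 8 from 56294585 to 56321043), the dehydrogenase that inactivates PGE2, had 19 and 25 UMIs, of which macrophage-like barcodes held 12 and 23. Slco2a1 (ENSMUSG00000032548, chromosome 9 from 102988712 to 103096002), the uptake transporter, had 0 UMIs in kept WT barcodes, with the same limit, and 1 in the Clec7a-/- library. Slco2a1 in every class, and Hpgd outside the macrophage-like class, were thus at or near the limit of detection at this depth.

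Barcodes that were left out for more than 5% mitochondrial UMIs, 729 in WT and 1057 in Clec7a-/-, held these genes more often when they also held epithelial transcripts. In the 108 WT and 88 Clec7a-/- barcodes with at least 5 UMIs of 7 epithelial markers such as Epcam and Krt8, a limit chosen after the values were seen, Hpgd reached 29.7 CPM (15 UMIs) and 23.0 CPM (9 UMIs). In the other left-out barcodes it had 2.82 and 3.80 CPM. Abcc4 showed the same split, with 43.6 and 63.8 CPM against 5.63 and 11.1 CPM. Slco2a1 had 7 and 0 UMIs in the epithelial-marker barcodes and 1 and 0 in the others.

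The libraries were then compared, as log2 ratios of Clec7a-/- over WT. Ptgs2 had 346 CPM (4251 UMIs) in WT and 162 CPM (1226 UMIs) in Clec7a-/- over all kept barcodes, a log2 ratio of -1.09 (-1.19 to -1.001), or 2.13-fold lower. Among 9856 genes with at least 50 UMIs, 1.85% were at least 2-fold lower and 3.42% at least 2-fold higher. Of the 7 members in that number, Ptgs2 was past 2-fold in the lower and Ptger4 in the higher direction, and the median of the 7 was -0.27 against 0.14 for all genes. Lower calls made up 35.1% of all calls, and 58.0% with TMM scaling, which moves every ratio over all barcodes by -0.17. Since the class mix differed, the ratio was also taken with the Clec7a-/- classes weighted as in the WT library, which gave -0.71 for Ptgs2.

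Within classes, Ptgs2 was lower in the Clec7a-/- library in the monocyte-like class (526 and 316 CPM, -0.74, -0.99 to -0.49), in the transitional-like class (571 and 348 CPM, -0.71, -0.89 to -0.54) and in the macrophage-like class (290.0 and 138 CPM, -1.07, -1.26 to -0.88). The mixed class had 486 and 227 CPM (-1.10, -1.60 to -0.63). In the 2 neutrophil-like classes together the levels were 279 and 275 CPM, a log2 ratio of -0.02 (-0.31 to 0.26), or -0.16 with TMM scaling. Different clusters hold this pair of classes in each library, with 491 Ngp+ Retnlg+ and 185 shallow barcodes in WT and 82 and 322 in Clec7a-/-. Taken apart, the Ngp+ Retnlg+ class had 286 and 365 CPM (0.35, -0.08 to 0.76) and the shallow class 230.3 and 233 CPM (0.02, -0.50 to 0.54). The difference between the ratio of the 2 neutrophil-like classes together and that of the transitional-like class was 0.69 (0.37 to 1.02). Against the macrophage-like class it was 1.05 (0.71 to 1.38). The lower Ptgs2 was thus seen in monocyte, transitional and macrophage classes, and the neutrophil-like classes differed from them by more than counting error. Neutrophil markers summed to 50738 CPM in WT and 46821 CPM in Clec7a-/- barcodes of the Ngp+ Retnlg+ class, and to 15420 and 25234 CPM in the class with few UMIs. They were also lower in the Clec7a-/- barcodes of the classes with lower Ptgs2, at 1863 and 977 CPM in monocyte-like, 5731 and 3596 CPM in transitional-like, 2037 and 1499 CPM in macrophage-like, 20542 and 13846 CPM in mixed and 2882 and 1771 CPM in cDC2-like barcodes. The part of these markers in the Ptgs2 ratios was not tested.

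Among the DC-like classes, cDC2-like barcodes had 315 and 118 CPM of Ptgs2 (-1.41, -1.88 to -0.96). There 7 WT barcodes held 65.9% of the 138 UMIs and 8 Clec7a-/- barcodes 65.5% of the 58, so that interval is too narrow. Without the highest barcode of each library the cDC2-like ratio was -1.49 (-2.01 to -0.99). Mature-DC-like barcodes had 186 and 87.6 CPM (-1.08), but 61 of the 137 WT UMIs came from 1 barcode, and without the highest barcode of each library the ratio was -0.45 (-0.90 to 0.02). In that class 1.39% of 4324 genes were at least 2-fold lower and 1.11% at least 2-fold higher. Ptgs2 was the member called lower among 3 tested there, a call that rested on that barcode.

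**Figure D5:**
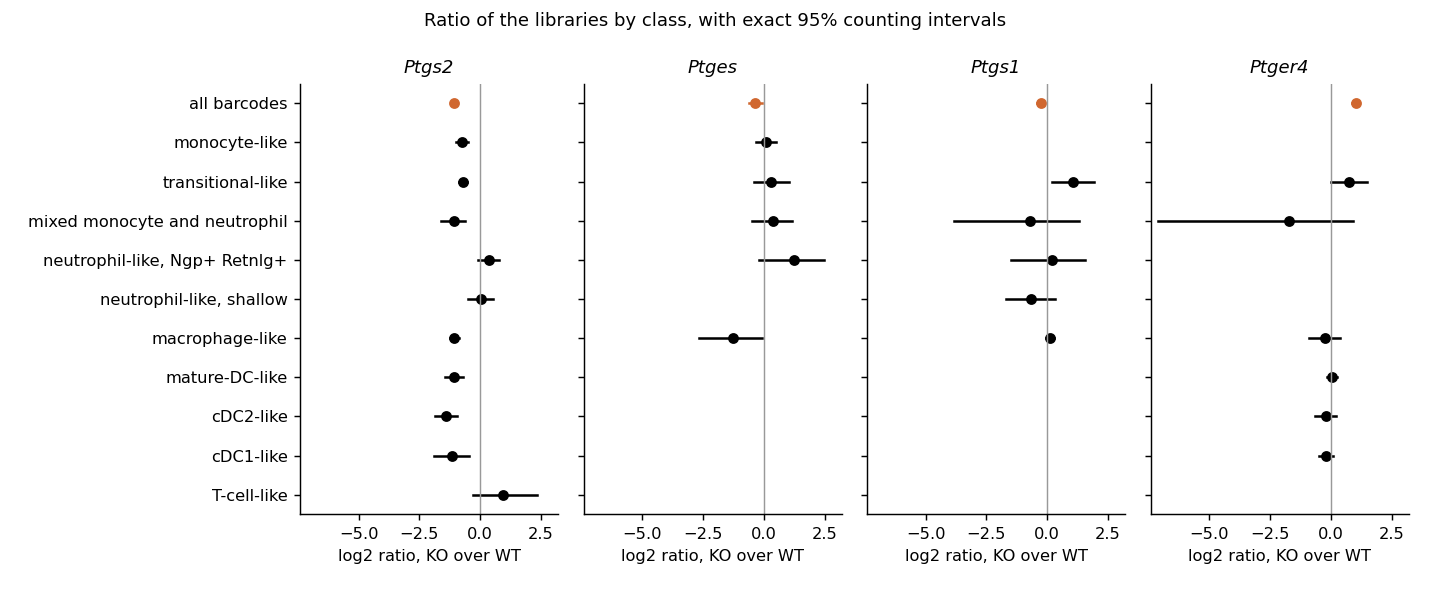
Log2 ratio of the Clec7a-/- (KO) over the WT library (x axes) for Ptgs2, Ptges, Ptgs1 and Ptger4 over all barcodes (orange) and by class (black), with exact 95% counting intervals, drawn where the class held at least 20 UMIs of the gene over both libraries and at least 1 in each. Ptgs2 lay below 0 in the monocyte-like, transitional-like and macrophage-like classes (-0.74, -0.71 and -1.07). In the neutrophil-like classes Ptgs2 was at 0.35 (Ngp+ Retnlg+) and 0.02 (shallow), with intervals that spanned 0. Ptger4 was at 1.02 over all barcodes but at 0.04 in mature-DC-like ones.

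Ptges and Ptgs1 were compared with Ptgs2 in the class that held most of each. In monocyte-like barcodes Ptges had 141 and 149 CPM, a ratio of 0.08 (-0.33 to 0.49), which differed from that of Ptgs2 in the same barcodes by 0.82 (0.35 to 1.28). In macrophage-like barcodes Ptgs1 had 195 and 213 CPM, a ratio of 0.13 (-0.04 to 0.30), which differed from that of Ptgs2 by 1.19 (0.94 to 1.45). Ptgs2 was thus lower relative to both partners, whose own ratios did not differ from 0 beyond counting error. Over all barcodes Ptges had 27.6 and 21.7 CPM, a ratio of -0.35 (-0.63 to -0.07) that turned to 0.26 at the WT class mix, and Ptgs1 had 79.7 and 66.0 CPM, a ratio of -0.27 that turned to 0.09. In macrophage-like barcodes, where 35 and 7 Ptges UMIs were found, the ratio was -1.26 (-2.67 to -0.06), beside -1.07 for Ptgs2. However, 1 WT barcode held 10 of the 35 UMIs, and the ratio of Ptges was not taken without it. Of the genes tested in the macrophage-like class, 0.918% were called lower, Ptgs2 among 4 members, and 0.567% higher, none of them a member. No member of 3 was called in the monocyte-like class, where 1.96% of genes were lower and 0.699% higher.

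In the transitional-like class Ptgs1 was the member called among 5, with 12.6 and 26.3 CPM from 23 and 27 UMIs, a ratio of 1.06 (0.21 to 1.93), beside 1.22% of genes called lower and 0.811% called higher. Ptges3 had 231 and 253 CPM over all barcodes, a ratio of 0.14 that turned to -0.10 at the WT class mix and to -0.03 with TMM scaling. Hpgd was higher in Clec7a-/- macrophage-like barcodes, at 2.82 CPM (12 UMIs) in WT and 11.3 CPM (23 UMIs) in Clec7a-/-, a ratio of 2.01 (0.94 to 3.15). It did not reach the 50 UMIs set for a call, and 1 Clec7a-/- barcode held 5 of the 23.

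Ptger4 had 63.0 CPM (774 UMIs) in WT and 128 CPM (966 UMIs) in Clec7a-/- over all barcodes, a ratio of 1.02 (0.88 to 1.16). Within the 3 DC-like classes together the levels were 320.1 and 314 CPM, a ratio of -0.03 (-0.18 to 0.12), and with the WT class mix the ratio over all barcodes was -0.10. The Clec7a-/- library held both more Ptger4 as a whole and a larger share of DC-like barcodes, and levels inside those classes did not differ beyond counting error. Ptger2 had 8.06 and 5.95 CPM (-0.44, -0.98 to 0.09) and Abcc4 8.71 and 8.86 CPM (0.03, or -0.14 with TMM scaling).

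Over 20 units, the 10 classes in each of the 2 libraries, levels of Ptgs2 and Ptges went together (Pearson r = 0.71 on log2(CPM + 1)), while Ptges and Ptger4 went apart (r = -0.71). Ptgs2 and Ptger4 had r = -0.56 and Ptgs2 and Ptgs1 had r = 0.30. These describe the classes, which share libraries and differ in depth. The genes of 6978 candidates most like Ptgs2 were Gch1, the first enzyme of tetrahydrobiopterin synthesis (r = 0.91), Pgd (0.88) and App (0.87). Most like Ptgs1 were Mmp9 (0.90), itself a marker used for neutrophils, Cdk18 (0.87) and Bnip3 (0.87), and most like Ptges were Ly6c2 (0.92), a monocyte marker, Sra1 (0.87) and Sod2 (0.86). Ptger4 was most like Gpd2 (0.97), Appl1 (0.94) and Pik3r1 (0.94), and Ptges3 like Ywhae (0.98), Cul1 (0.97) and Psmd11 (0.96). By rank correlation (Spearman rho) the 3 closest to Ptgs2 were Ppard, Arrdc4 and Pgd, with Gch1 at rank 5 and App at 8. Cdk18 fell to rank 10, Sra1 to 11 and Pik3r1 to 29, and Appl1, Ywhae and Psmd11 also left the first 3. Pgd, Mmp9, Bnip3, Ly6c2, Sod2, Cul1 and Gpd2 stayed among them.

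Other genes of the pathway were counted as lists. Of 31 genes in 5 lists (phospholipases, other PGE2 genes, other prostanoid synthases, other receptors and later breakdown), 16 held at least 50 UMIs. Over all barcodes 1 of these was at least 2-fold higher in the Clec7a-/- library, beside 3.42% of all genes, and 0 were at least 2-fold lower, beside 1.85%. The median log2 ratio of the 16 was -0.09, against 0.14 for all genes. The higher one was Pla2g2d, a secreted phospholipase, with 2.52 and 11.9 CPM. Its UMIs were macrophage-like, at 7.06 CPM (30 UMIs) in WT and 43.4 CPM (88 UMIs) in Clec7a-/-, a ratio of 2.62 (2.01 to 3.27).

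Several of these genes had class patterns that differed from those of Ptgs2 and Ptges. Among the 10 classes, Hpgds, the hematopoietic prostaglandin D synthase gene, was highest in macrophage-like barcodes at 105 and 109 CPM, with 94.6 and 3.03 CPM in the shallow neutrophil-like class, where macrophage markers summed to 4638 and 1822 CPM. Tbxas1, the thromboxane synthase, was also highest in macrophage-like barcodes, at 42.1 and 40.9 CPM, as was Pla2g7, which hydrolyses platelet-activating factor, at 770.2 and 774 CPM. Ptgir, the prostacyclin receptor gene, was highest in monocyte-like barcodes at 63.0 and 78.2 CPM, and Ptgr1, which encodes a reductase of later prostaglandin breakdown, at 119.8 and 88.8 CPM. Cytosolic phospholipase Pla2g4a was scarce, with 93 and 29 UMIs.

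A list of 14 genes reported as induced or repressed by PGE2 through cAMP was counted too. The list was chosen with earlier results of these data known, and its ratios over all barcodes were not taken at the WT class mix. Because it mixes both directions, its counts and its median do not give the direction of a PGE2 response. Over all barcodes 3 of 14 were at least 2-fold lower in the Clec7a-/- library, namely Tnf (278 and 108 CPM), Il23a (18.9 and 7.94 CPM) and Il10 (66.3 and 32.1 CPM), beside 1.85% of all genes. None was at least 2-fold higher (0 of 14, beside 3.42%), with a median of -0.58 against 0.14 for all genes. The list also holds Vegfa and Thbs1, which are on the list of transitional markers, and Il12b, which is on that of mature DCs. Within the macrophage-like class 2 of 12 tested were lower, Il10 (140.2 and 60.1 CPM) and Areg (13.4 and 3.45 CPM), beside 0.918% of all genes, and 0 were higher, beside 0.567%. Tnf had 126 and 130 CPM there. Nr4a2, a nuclear receptor gene induced by cAMP, was highest in DC-like barcodes, with 529 and 780 CPM in mature-DC-like ones.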

How the data were processed

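Single-cell RNA was sequenced from 2 pooled libraries, 1 per genotype. The authors deposited UMI counts for each gene and barcode as a filtered matrix per library, not normalized, made with Cell Ranger 2.1.1 on mm10 according to the submitters' processing notes. The study's methods name a SeekOne microwell kit and the labels name 10x Genomics, and use of strand in counting is not given in the sources used here. The CD11b and CD11c sort and the pooling of mice precede all counts.

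From the counts, barcodes with 200 to 4000 genes and at most 5% mitochondrial UMIs were clustered in Seurat 5.3.0 (R 4.3.3) on 1977 of 2000 variable features, leaving out the members, other compared genes and a few sex-linked genes, with 20 principal components, seed 1 and resolution 0.7, the lowest tried that gave at least 15 clusters. The clusters were drawn without batch integration. A cluster was named from marker genes at least 2-fold higher in it and found in at least 10% of its barcodes, with 3 or more markers. Scrublet (scanpy 1.11.5) called only 3 WT and 7 Clec7a-/- doublets, too few to be relied on, so doublets were kept and an alternative removed the top 5% of scores (171 and 104 barcodes). Levels are summed UMIs over total UMIs. Ratios have exact conditional intervals, levels exact Poisson and shares exact Clopper-Pearson intervals (scipy 1.17.1). Shares with a count of 0 use a floor of 3 counts. A gene was called where the libraries differed at least 2-fold with a pseudocount of 0.5 and at least 50 UMIs in both together. Likeness was Pearson r over 20 units for genes with at least 200 UMIs, and the 3 closest to each member with as many UMIs are named. All 10 members are named, and other pathway genes from 6 lists where they hold at least 50 UMIs. Steps were tested on simulated data.

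Members and lists were chosen with earlier results of these data known. Alternatives were at most 10% mitochondrial UMIs, 30 components, removal of likely doublets, classes from marker lists alone, TMM (edgeR 4.0.16) and DESeq2 1.42.0 size factors, the mean of per-barcode CPM, the WT class mix, other UMI minimums (20 and 200), a pseudocount of 5, thinning to 2000 UMIs or none, and, chosen after seeing the data, leaving out the barcode with the most UMIs. Likeness was also ranked by Spearman rho. Gene positions are from GENCODE M21 and promoter sequences from RefSeq on GRCm38.p6.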

Additional observations from a re-analysis of the deposited data

Results flagged for a closer look

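Barcodes over 5% mitochondrial UMIs, left out of the classes and of the comparison of libraries as reported, held some of these genes above their level in kept barcodes. In the 729 such WT barcodes, Ptger4 had 142 CPM (373 UMIs) against 63.0 CPM in kept ones, Hpgd had 7.97 CPM (21 UMIs) against 1.55 CPM, and Slco2a1 had 3.04 CPM (8 UMIs) against 0 UMIs. In the Clec7a-/- library the left-out barcodes held 161 CPM of Ptger4 against 128 CPM and 5.77 CPM of Hpgd against 3.31 CPM, and no Slco2a1. Epithelial markers summed to 2350 CPM in left-out and 48.2 CPM in kept WT barcodes, and to 1207 and 103 CPM in Clec7a-/- ones. Markers of mature DCs summed to 2454 and 1621 CPM in WT and to 4404 and 3307 CPM in Clec7a-/-. Those of cDC1 summed to 668 and 348 CPM in WT and to 1045 and 591 CPM in Clec7a-/-. Ptger4 had 145 CPM in left-out WT barcodes with under 5 UMIs of epithelial markers, against 129 CPM in those with at least 5. In the Clec7a-/- library its levels there were 172 and 66.3 CPM. The part of these markers in the higher levels was not tested.

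Each of the 9 WT barcodes with a Slco2a1 UMI that were left out, 1 of them for its number of genes, had 1 such UMI, between 1 and 158 UMIs of epithelial markers, and 0 UMIs of endothelial or fibroblast markers.

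Ptges3 had ratios of Clec7a-/- over WT that pointed in opposite directions in 2 classes. It was lower in the neutrophil-like class with few UMIs, at 226 CPM (55 UMIs) in WT and 60.6 CPM (20 UMIs) in Clec7a-/- (log2 ratio -1.90, -2.72 to -1.14). In mature-DC-like barcodes it was higher, at 240.0 CPM (177 UMIs) and 313 CPM (365 UMIs), a log2 ratio of 0.39 (0.12 to 0.65). The ratios differed by 2.28 (1.50 to 3.07, counting error only), with no test over samples. In that neutrophil-like class, macrophage markers summed to 4638 CPM in WT and 1822 CPM in Clec7a-/- barcodes, and neutrophil markers to 15420 and 25234 CPM, and the part of this in the Ptges3 values was not tested.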

How the results depend on the processing

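No paired analysis was possible because each genotype had 1 library and no result came from a test over samples. Of 270 alternative values for 63 results, 178 lay within the limits set around those reported, 86 moved beyond them and 6 reversed direction. The limits were counting error for ratios and shares, a set range around the reported number for counts of genes, and the first 3 ranks for likeness. At the WT class mix, the log2 ratio over all barcodes was -0.71 for Ptgs2, 0.092 for Ptgs1, 0.26 for Ptges, -0.10 for Ptges3 and -0.10 for Ptger4, so that the last 4 turned direction. TMM and DESeq2 scaling gave -1.26 and -1.27 for Ptgs2, -0.031 and -0.039 for Ptges3, which also turned, and 0.85 and 0.85 for Ptger4. The mean of per-barcode CPM gave -0.82 for Ptgs2 and 0.74 for Ptger4 over all barcodes, and -0.71 for Ptgs2 in the macrophage-like class. Classes from markers alone gave 0.18 for Ptger4 in the 3 DC-like classes.

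The log2 level of the monocyte-like class over all other barcodes for Ptges was 3.35 in WT and 4.23 in Clec7a-/- without likely doublets, 1.99 and 2.84 with classes from markers alone, and 3.13 in Clec7a-/- as mean per-barcode CPM. That of macrophage-like Ptgs1 in Clec7a-/- was 3.68 with 30 components and 3.66 as mean per-barcode CPM. That of Ptger4 in the 3 DC-like classes was 3.88 in WT and 2.99 in Clec7a-/- with up to 10% mitochondrial UMIs, and 3.84 in WT with classes from markers alone. The share of barcodes with both Ptgs2 and Ptges was 2.55% in WT and 1.29% in Clec7a-/- at 2000 UMIs and 3.82% and 1.5% without thinning, and in the monocyte-like class 8.47% and 7.86% at 2000 UMIs and 10.1% and 6.49% without thinning. Genes over all barcodes called lower numbered 276 with at least 20 UMIs, 113 with at least 200 and 275 with TMM, and those called higher 627, 127 and 199, against 182 and 337 as reported.

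Ptgs2 in mature-DC-like barcodes had a ratio of -0.15 without likely doublets, -0.23 as mean per-barcode CPM, -0.45 without the highest barcodes and -1.56 with classes from markers alone. Ptger3 and Slco2a1, with at most 1 UMI in the kept barcodes of each library, allow no comparison at this depth. With 1 pooled library per genotype, differences between genotypes and between libraries cannot be told apart.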

Other observations

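Other pathway genes and genes of the PGE2 response differed between the libraries within single classes. In the macrophage-like class, 2 of 14 other pathway genes with at least 50 UMIs were at least 2-fold higher in the Clec7a-/- library, Pla2g2d and Prxl2b, a prostamide and prostaglandin F synthase gene (7.76 and 16.8 CPM, log2 ratio 1.11, 0.37 to 1.85), and 0 were at least 2-fold lower, beside 0.567% and 0.918% of all genes in that class. In the monocyte-like class Il10 was lower, at 58.8 and 19.5 CPM from 56 and 11 UMIs (-1.59, -2.67 to -0.64), 1 of 11 response genes there, beside 1.96% of all genes. Il23a, which encodes a subunit of interleukin 23, was higher in Clec7a-/- transitional-like barcodes, at 13.7 and 29.2 CPM (1.10, 0.28 to 1.92), 1 of 12 response genes there, beside 0.811% of all genes, although it was lower over all barcodes.

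In mature-DC-like barcodes 3 of 12 response genes were at least 2-fold lower and 1 was higher, beside 1.39% and 1.11% of all genes in that class. Neutrophil markers summed to 1642 CPM in WT and 595 CPM in Clec7a-/- mature-DC-like barcodes, and their part in these values was not tested. Tnf had 81.4 and 15.5 CPM (-2.40, -3.24 to -1.62), Vegfa 113 and 53.2 CPM (-1.08), Plaur 167 and 42.9 CPM (-1.96), and Nr4a1, an early response gene, 90.8 and 201 CPM (1.15). Tnf in the neutrophil-like class with few UMIs, where its level was highest, was 1719 CPM in WT and 582 CPM in Clec7a-/- barcodes.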
